A study of Mus musculus with 9 samples.

Results

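Bile acid synthesis and its control were followed through 10 genes in the liver transcriptome of mice fed a normal diet (ND), a high-fat diet (HFD), or an HFD with PRF. The genes were Cyp7a1, Cyp7b1, Cyp8b1, Cyp27a1, Hsd3b7, Akr1d1, Baat, Nr0b2, Nr1h4, and Fgfr4. They were chosen by name for their place in the pathway, with earlier results of these data known. All 10 were found among the 23183 gene symbols of the deposited tables and were above 0 in all 9 livers. RNA-Seq had been done on 1 liver library from each of 9 male C57BL/6J mice at postnatal day 100, 3 per group. ND mice (numbered 6, 7, and 9) ate a diet with 14% fat, and HFD mice (1, 2, and 3) ate one with 60% fat for 10 weeks. PRF 50 mice (3, 9, and 10) ate the HFD for the same time and received 50 mg/kg of PRF, a fraction of Jinkyool citrus leaf rich in polymethoxyflavones, orally each day in the last 5 weeks. PRF was given in 0.5% carboxymethyl cellulose, whether ND and HFD mice received this vehicle is not given in the sources used here, and all mice were fasted for 8 h before the tissue was taken. The labels number the mice as separate animals, and each p-value below measures the spread between these mice. The hour of tissue collection is not given in the sources used here. The study also ran an oral glucose tolerance test on the final experimental day, and its timing relative to tissue collection is likewise not given.

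Bile acids are made from cholesterol in hepatocytes by a classic route, which begins with Cyp7a1, and an alternative route, which begins with Cyp27a1 and continues through Cyp7b1. Cyp8b1 steers the product toward cholic acid, Hsd3b7 and Akr1d1 modify the steroid rings in both routes, and Baat joins the finished acid to taurine. Bile acids limit their own synthesis through the receptor Nr1h4 (FXR), its target Nr0b2 (SHP), and a signal from the ileum that is received on hepatocytes by Fgfr4.

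Values are given as deposited and were read as log2(FPKM + 1), where FPKM is a fragment measure scaled by transcript length and library size. A difference of group means on this scale is called a log2 fold change, and for genes with low values it is smaller than the change in FPKM itself. Genes that averaged 1 FPKM or more across the 6 mice of a comparison were tested with limma, and a gene is said to have risen or fallen where its Benjamini-Hochberg adjusted p over all tested genes was under 0.05. All 10 genes passed the minimum in each comparison. Depth relative to HFD mouse 1 lay between 0.969 and 1.60, and the groups overlapped in it. No read counts were available to the fit, and the counting error of single values is unknown.

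Between the HFD and ND groups, Cyp7b1 and Fgfr4 fell and none of the 10 genes rose. These 2 of 10 compare with 1.33% of the 9978 tested genes past the same threshold, 0.631% lower and 0.702% higher. The 3 HFD values lay apart from the 3 ND values for 4 of the 10 genes (Cyp7b1, Cyp27a1, and Fgfr4 lower, Akr1d1 higher) and for 20.7% of all tested genes. The same 4 genes had an unadjusted limma p under 0.05, against 15.1% of all tested genes. Cyp7b1 alone was also more than 2-fold changed at that p, against 1.34% of all tested genes.

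Between the PRF 50 and HFD groups, Cyp7b1 rose and Akr1d1 fell. These 2 of 10 compare with 3.59% of the 10084 tested genes, 1.43% higher and 2.16% lower. Cyp7b1, Akr1d1, and Fgfr4 had separate groups, 3 of 10 genes against 26.2% of all tested genes, a share close to the background. The same 3 genes had an unadjusted limma p under 0.05, against 20.2% of all tested genes. Only Cyp7b1 joined such a p to a change of more than 2-fold, which 2.1% of all tested genes did.

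Between the PRF 50 and ND groups, 0 of the 10 genes passed limma's adjusted threshold, against 0.458% of the 10051 tested genes (0.159% higher and 0.298% lower). At an unadjusted limma p under 0.05 the count was also 0 of 10, against 12.5% of all tested genes, and when a change of more than 2-fold was also asked for it was 0 of 10 against 1.76%. No gene of the 10 had groups that lay apart, against 19.9% of all tested genes. The median log2 fold change of the 10 genes was -0.04 (HFD vs. ND), -0.02 (PRF 50 vs. HFD), or -0.11 (PRF 50 vs. ND), beside -0.01, -0.02, and -0.03 over all tested genes. HFD mice enter both of the first comparisons, and each of the other groups is likewise shared by a pair of comparisons, so the comparisons are not independent of each other.

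**Figure D1:**
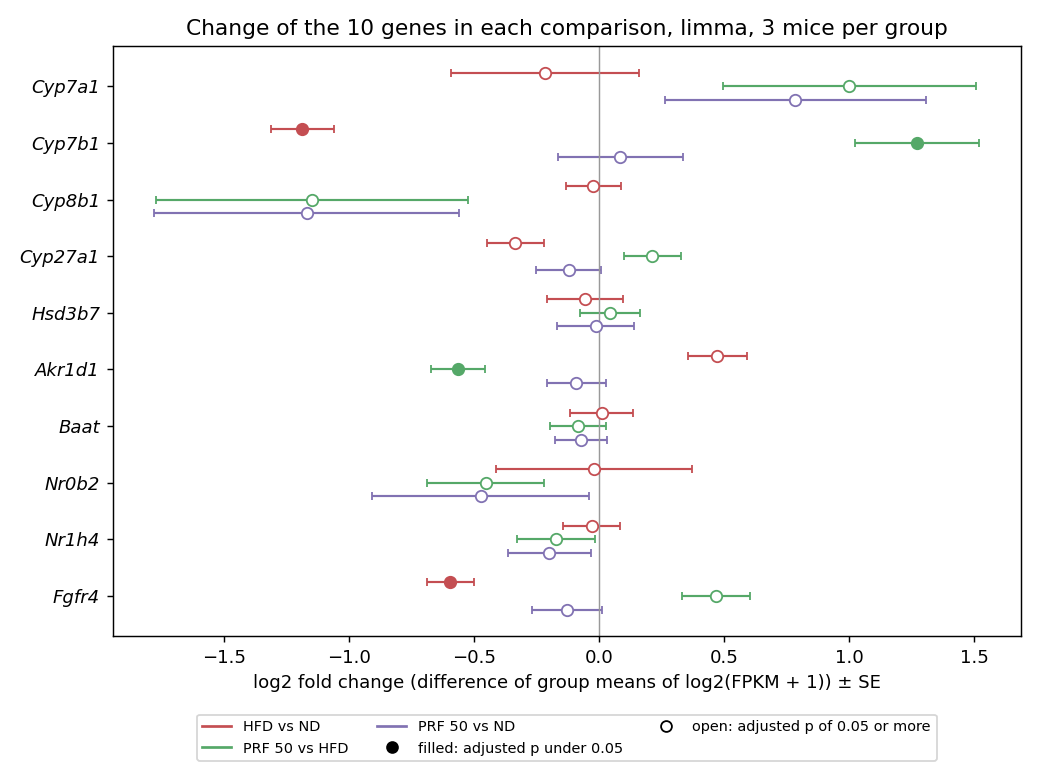
Log2 fold change ± SE of each of the 10 genes (vertical axis) in HFD vs. ND, PRF 50 vs. HFD, and PRF 50 vs. ND, from limma with 3 mice per group, with filled points for an adjusted p under 0.05. Filled points are those of Cyp7b1 (-1.19) and Fgfr4 (-0.59) in HFD vs. ND and of Cyp7b1 (1.27) and Akr1d1 (-0.56) in PRF 50 vs. HFD. The longest error bars belong to Cyp8b1 and Cyp7a1 in both PRF 50 comparisons and to Nr0b2 and Cyp7a1 in HFD vs. ND.

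Levels were ordered by FPKM, which allows for transcript length. The highest mean in the ND group was that of Hsd3b7, with 237 ± 40.3 FPKM (SD, n = 3), followed by Cyp27a1 (209 ± 12.6), Cyp8b1 (156 ± 12.6), Baat (151 ± 4.96), and Cyp7b1 (101 ± 9.24). Nr1h4 (86.5 ± 7.11 FPKM), Akr1d1 (86.4 ± 6.19), Nr0b2 (43.6 ± 22.5), Cyp7a1 (35.2 ± 16.9), and Fgfr4 (8.60 ± 0.333) followed. Neighbours closer than the larger of their SDs were Hsd3b7 and Cyp27a1, Cyp8b1 and Baat, Nr1h4 and Akr1d1, and Nr0b2 and Cyp7a1. The mean of Cyp7b1 was 43.8 ± 4.98 FPKM in the HFD group, below the means of Akr1d1 (120.5 ± 11.0) and Nr1h4 (84.7 ± 5.90) and within 1 SD of Nr0b2 (38.5 ± 5.77). PRF 50 livers had Hsd3b7 (233 ± 23.2 FPKM) and Cyp27a1 (192 ± 21.1) at the top and Fgfr4 (7.89 ± 1.63) at the bottom. The middle of that order was unsettled, because Baat (143 ± 4.64 FPKM), Cyp7b1 (112 ± 39.2), Cyp8b1 (92.5 ± 77.8), Akr1d1 (81.2 ± 7.06), Nr1h4 (76.2 ± 15.9), Cyp7a1 (65.9 ± 37.6), and Nr0b2 (28.7 ± 9.56) each lay within the larger SD of the next.

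**Figure D2:**
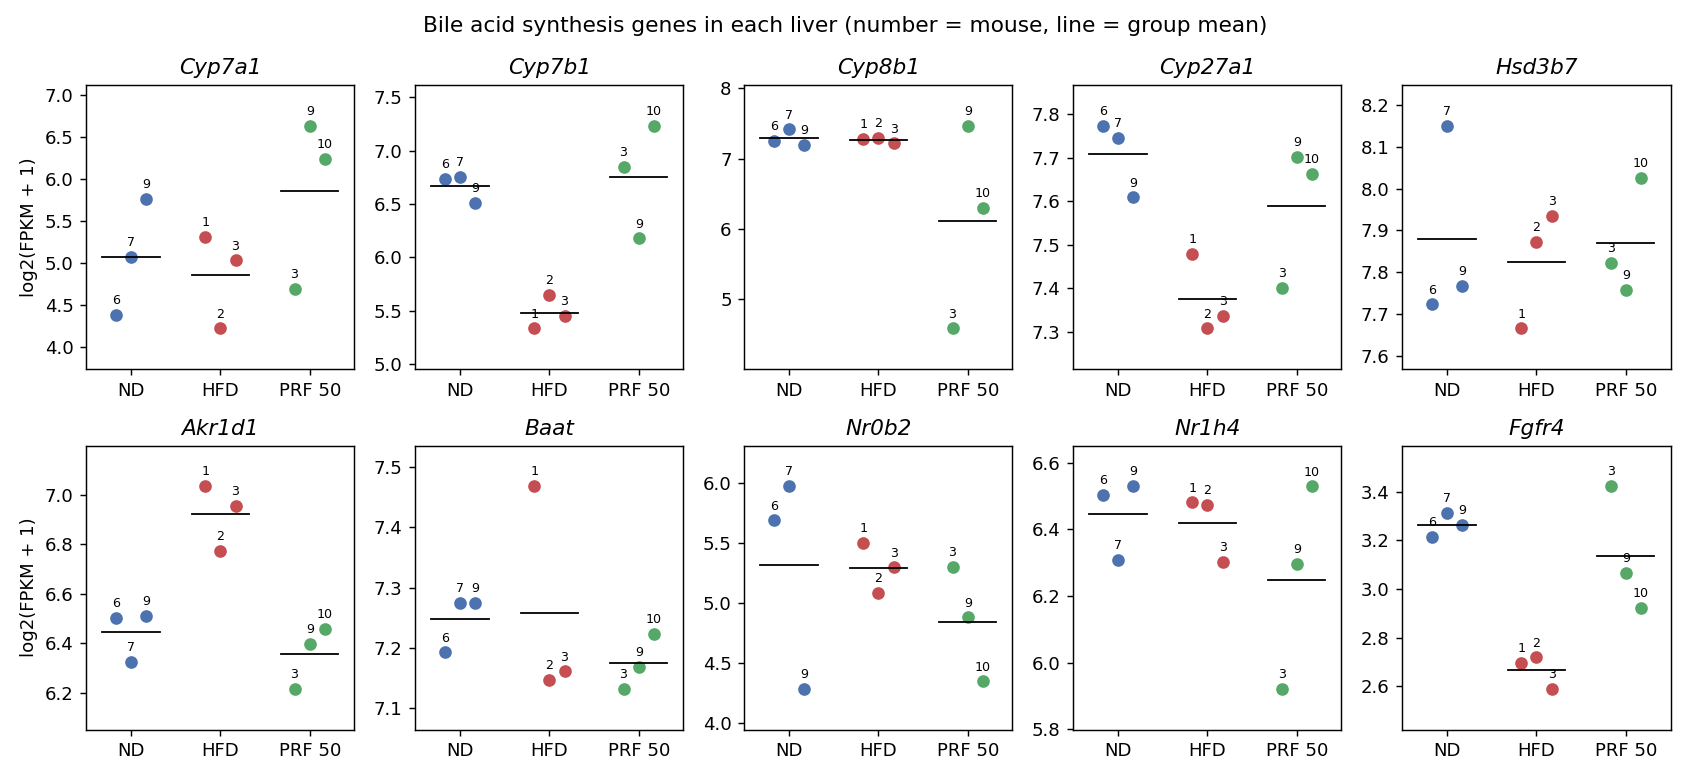
Log2(FPKM + 1) of each of the 10 genes in each liver, by group on the horizontal axis, with the mouse number above each point and a line at the group mean (each panel has its own vertical scale, which does not start at 0). The HFD points of Cyp7b1 (5.34 to 5.65) and Fgfr4 (2.59 to 2.72) lie below all other points of their panels, those of Akr1d1 (6.77 to 7.03) lie above, and Cyp8b1 spreads from 4.59 to 7.47 in the PRF 50 group.

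Cyp7b1, the oxysterol hydroxylase of the alternative route (chromosome 3, 18071950 to 18243338, minus strand, GENCODE M21 on GRCm38), was lowest in the livers of HFD mice. Its log2 values were 6.73, 6.75, and 6.51 in ND mice 6, 7, and 9. They were 5.34, 5.65, and 5.45 in HFD mice 1, 2, and 3. In PRF 50 mice 3, 9, and 10 they were 6.84, 6.18, and 7.23. All 3 HFD livers lay below the 6 other livers, and the PRF 50 values lay on both sides of the ND values. From ND to HFD, Cyp7b1 fell by 1.19 on the log2 scale (SE 0.13, adjusted p = 0.00731), which is 2.27-fold lower. It was called in 13 of 13 alternative settings, with adjusted p between 0.00434 and 0.0406. From HFD to PRF 50 it rose by 1.27 (SE 0.25, adjusted p = 0.0414), which is 2.42-fold higher, and all 3 PRF 50 livers were above all 3 HFD livers. Calls over all tested genes also became fewer with 1 mouse less or no minimum, from 362 to between 15 and 242. The call of Cyp7b1 was kept in 7 of 13 alternatives, with log2 fold changes from 1.03 to 1.56 and adjusted p from 0.0147 to 0.132. It was lost without HFD mouse 1 (adjusted p = 0.0970), 2 (0.102), or 3 (0.132), without PRF 50 mouse 3 (0.115) or 10 (0.0661), and with no minimum level (0.0836). PRF 50 and ND livers differed in Cyp7b1 by 0.09 (SE 0.25, adjusted p = 0.908), with a PRF 50 SD of 0.53 and an ND SD of 0.13. That difference was -0.15 without PRF 50 mouse 10, 0.37 without PRF 50 mouse 9, 0.041 without PRF 50 mouse 3, and 0.0090 without ND mouse 9.

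Cyp27a1, the mitochondrial sterol hydroxylase at the head of the alternative route, had values of 7.77, 7.75, and 7.61 in ND mice 6, 7, and 9. HFD mice 1, 2, and 3 had 7.48, 7.31, and 7.34, and PRF 50 mice 3, 9, and 10 had 7.40, 7.70, and 7.66. The HFD values were all below the ND values, and PRF 50 mouse 3 lay among the HFD mice while mice 9 and 10 lay among the ND mice. HFD vs. ND gave a log2 fold change of -0.33 (SE 0.11, adjusted p = 0.231) and PRF 50 vs. HFD gave 0.21 (SE 0.11, adjusted p = 0.352), neither past the threshold. PRF 50 vs. ND gave -0.12 (SE 0.13, adjusted p = 0.725), which was -0.028 without PRF 50 mouse 3.

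Cyp7a1, the rate-limiting enzyme of the classic route, varied strongly within every group. ND mice 6, 7, and 9 had log2 values of 4.38, 5.07, and 5.76. HFD mice 1, 2, and 3 had 5.31, 4.22, and 5.03. PRF 50 mice 3, 9, and 10 had 4.69, 6.64, and 6.24. PRF 50 mice 9 and 10 were the highest of the 9 livers, PRF 50 mouse 3 lay among the ND and HFD mice, and the ND and HFD groups overlapped throughout. A smaller SD was found for 98.5% (ND), 98.0% (HFD), and 99.4% (PRF 50) of the genes, and the SD of Cyp7a1 was 1.03 among PRF 50 mice. PRF 50 vs. HFD gave a log2 fold change of 1.0 (SE 0.51, adjusted p = 0.327) and PRF 50 vs. ND one of 0.78 (SE 0.52, adjusted p = 0.554). Without PRF 50 mouse 3 the difference from HFD was 1.58 (adjusted p = 0.0849), and without mouse 9 it was 0.61 (adjusted p = 0.584). The difference from ND was 1.37 without PRF 50 mouse 3, 0.39 without PRF 50 mouse 9, and 0.44 without ND mouse 6. HFD vs. ND gave -0.22 (SE 0.38, adjusted p = 0.825), and this sign turned without ND mouse 9 (0.13) or HFD mouse 2 (0.10).

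Cyp8b1, which directs synthesis to cholic acid, was nearly level in the ND and HFD groups and scattered in the PRF 50 group. ND mice 6, 7, and 9 had log2 values of 7.25, 7.42, and 7.20, and HFD mice 1, 2, and 3 had 7.28, 7.30, and 7.22. PRF 50 mice 3, 9, and 10 had 4.59, 7.47, and 6.30. PRF 50 mouse 9 had the highest value of the 9 livers, and PRF 50 mice 3 and 10 had the lowest, so the PRF 50 group overlapped both others. Its SD of 1.45 in the PRF 50 group exceeded that of 99.7% of the genes, whereas its HFD SD of 0.04 exceeded that of 9.36%. PRF 50 vs. HFD gave a log2 fold change of -1.15 (SE 0.62, adjusted p = 0.360), PRF 50 vs. ND -1.17 (SE 0.61, adjusted p = 0.476), and HFD vs. ND -0.02 (SE 0.11, adjusted p = 0.949). Without PRF 50 mouse 3 the difference from HFD was -0.38, and without mouse 9 it was -1.82 (adjusted p = 0.101), so single mice moved it more than its SE. The difference from ND was likewise -0.40 without mouse 3 and -1.84 without mouse 9. In mouse 3 the FPKM of Cyp8b1 was 23.1, against 177 in mouse 9 and 78.0 in mouse 10.

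RefSeq promoter entries on GRCm38.p6 were found for 7 of the 10 genes (Cyp8b1, Cyp27a1, Hsd3b7, Akr1d1, Nr0b2, Nr1h4, and Fgfr4), and Cyp7a1, Cyp7b1, and Baat had none. The 250 bases before each start were searched on both strands for CAAGGNCA (NR5A2), CAAAGTCCA (HNF4A), an inverted repeat of AGGTCA with 1 base between (FXR), and TTANGTAA (the DBP family). Of all 32851 such windows, 5.53% held the NR5A2 letters, 0.384% the HNF4A letters, 0.00609% the FXR repeat, and 2.06% the DBP letters. Cyp8b1 and Nr0b2 held a match and are shown because, of the genes with an entry, they varied most between livers, beside Cyp2c70, another bile acid enzyme, described below. The sequences run 5′ to 3′ toward the start site on the gene's strand, with matches in capitals.
Cyp8b1 (chr9:121916306-121916555, minus strand): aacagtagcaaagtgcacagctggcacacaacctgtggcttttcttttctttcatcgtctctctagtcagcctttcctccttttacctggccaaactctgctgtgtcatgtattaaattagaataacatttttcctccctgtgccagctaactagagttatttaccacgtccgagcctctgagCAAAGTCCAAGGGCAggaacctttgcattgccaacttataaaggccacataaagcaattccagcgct
Nr0b2 (chr4:133553126-133553375, plus strand): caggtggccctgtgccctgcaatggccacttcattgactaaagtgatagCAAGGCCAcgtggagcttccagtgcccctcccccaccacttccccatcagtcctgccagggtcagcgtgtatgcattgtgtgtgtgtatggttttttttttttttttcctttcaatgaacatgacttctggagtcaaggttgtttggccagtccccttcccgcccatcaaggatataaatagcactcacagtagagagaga
Cyp2c70 (chr19:40187287-40187536, minus strand): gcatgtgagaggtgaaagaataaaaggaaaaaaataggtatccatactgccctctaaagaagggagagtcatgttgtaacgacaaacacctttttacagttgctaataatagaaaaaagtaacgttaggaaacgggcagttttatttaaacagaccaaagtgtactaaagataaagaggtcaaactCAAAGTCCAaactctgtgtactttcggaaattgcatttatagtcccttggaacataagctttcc
In Cyp8b1 the HNF4A letters lay 67 to 59 bases before the start and overlapped the NR5A2 letters CAAGGGCA at 60 to 53 bases. Nr0b2 held CAAGGCCA 201 to 194 bases before its start, and Cyp2c70 held the HNF4A letters at 64 to 56 bases. The other 5 windows held none of these letters, which says nothing about the factors. Starts are those of the RefSeq entries and can differ from the GENCODE M21 gene positions. The Nr1h4 window (chr10:89506659-89506908, minus strand) lay inside the GENCODE gene (89454234 to 89533585). Those of Fgfr4 and Hsd3b7 ended at 55152817 and 127800608, past the gene starts of 55152640 and 127800604. A match describes letters and is not a measured binding site.

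Akr1d1, the reductase that acts on the steroid ring after Hsd3b7, had values of 6.50, 6.33, and 6.51 in ND mice 6, 7, and 9. It had 7.03, 6.77, and 6.95 in HFD mice 1, 2, and 3 and 6.22, 6.40, and 6.46 in PRF 50 mice 3, 9, and 10. The HFD livers were the 3 highest, and the ND and PRF 50 values overlapped. HFD vs. ND gave a log2 fold change of 0.47 (SE 0.12, adjusted p = 0.121), which did not pass the threshold. From HFD to PRF 50, Akr1d1 fell by 0.56 (SE 0.11, adjusted p = 0.0411), which is 1.48-fold lower. This call was kept in 5 of 13 alternatives, with adjusted p from 0.0287 to 0.138. It was lost without HFD mouse 1 (adjusted p = 0.0815), 2 (0.0881), or 3 (0.138), without PRF 50 mouse 3 (0.113), 9 (0.0805), or 10 (0.0647), with no minimum level (0.0704), and after quantile normalization (0.0787). PRF 50 vs. ND gave -0.09 (SE 0.12, adjusted p = 0.778), which was -0.019 without PRF 50 mouse 3 and -0.15 without ND mouse 7. Whether the HFD vs. ND and PRF 50 vs. HFD changes of Akr1d1 differ in size was not tested.

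Hsd3b7, the ring dehydrogenase, lay between 7.67 and 8.15 in all 9 livers, with HFD mouse 1 lowest and ND mouse 7 highest. Its log2 fold changes were -0.06 (HFD vs. ND, adjusted p = 0.895), 0.04 (PRF 50 vs. HFD, adjusted p = 0.876), and -0.01 (PRF 50 vs. ND, adjusted p = 0.985). Baat, the conjugating enzyme, lay between 7.13 and 7.47, and the highest value was that of HFD mouse 1. Its log2 fold changes were 0.01, -0.08, and -0.07, with adjusted p of 0.977, 0.734, and 0.797 in the same order. Each of these small differences changed sign in at least 1 alternative, without a single mouse or after quantile normalization. In the ND and PRF 50 groups the SD of Baat was 0.05 on the log2 scale, and 6.55% and 9.16% of the genes had a smaller SD.

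Nr0b2, the small heterodimer partner that represses Cyp7a1, was widely spread in the ND group. Its log2 values were 5.69, 5.97, and 4.28 in ND mice 6, 7, and 9. HFD mice 1, 2, and 3 had 5.50, 5.08, and 5.30, and PRF 50 mice 3, 9, and 10 had 5.30, 4.88, and 4.34. ND mouse 9 and PRF 50 mouse 10 were lowest, ND mice 7 and 6 were highest, and the groups overlapped. ND mouse 9, with the lowest Nr0b2, had the highest Cyp7a1 of its group, and PRF 50 mouse 3, with the highest Nr0b2 of its group, had the lowest Cyp7a1. HFD mice went the other way, with mouse 2 lowest and mouse 1 highest of the group for both genes. ND mouse 7 had the highest Nr0b2 of its group but not the lowest Cyp7a1. PRF 50 mouse 10 had the lowest Nr0b2 of its group but not the highest Cyp7a1. The ND SD of Nr0b2 (0.91) exceeded that of 99.4% of the genes. HFD vs. ND gave a log2 fold change of -0.02 (SE 0.39, adjusted p = 0.989), which was -0.54 without ND mouse 9 and 0.31 without ND mouse 7. PRF 50 vs. HFD gave -0.45 (SE 0.23, adjusted p = 0.339) and PRF 50 vs. ND gave -0.47 (SE 0.43, adjusted p = 0.680). The difference from HFD was -0.68 without PRF 50 mouse 3 and -0.20 without mouse 10. The difference from ND was -0.99 without ND mouse 9, -0.29 without ND mouse 6, -0.14 without ND mouse 7, and -0.22 without PRF 50 mouse 10.

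Nr1h4, the bile acid receptor, lay between 5.92 and 6.53, with PRF 50 mouse 3 lowest. ND mice 6, 7, and 9 had 6.50, 6.31, and 6.53, HFD mice 1, 2, and 3 had 6.48, 6.47, and 6.30, and PRF 50 mice 3, 9, and 10 had 5.92, 6.30, and 6.53. The groups overlapped in every comparison. The differences of Nr1h4 were -0.03 (HFD vs. ND, adjusted p = 0.934), -0.17 (PRF 50 vs. HFD, adjusted p = 0.599), and -0.20 (PRF 50 vs. ND, adjusted p = 0.654). Without PRF 50 mouse 3 the differences of PRF 50 from HFD and from ND were -0.0067 and -0.035, without PRF 50 mouse 10 they were -0.31 and -0.34, and after quantile normalization they were -0.051 and -0.063.

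Fgfr4, the receptor tyrosine kinase for the ileal signal (chromosome 13, 55152640 to 55168759, plus strand), was lower in all HFD livers than in any other. ND mice 6, 7, and 9 had log2 values of 3.21, 3.31, and 3.26. HFD mice 1, 2, and 3 had 2.7, 2.72, and 2.59. PRF 50 mice 3, 9, and 10 had 3.42, 3.07, and 2.92. The ND values lay within the range of the PRF 50 values, and the HFD values lay below both. From ND to HFD, Fgfr4 fell by 0.59 (SE 0.094, adjusted p = 0.0309), which is 1.51-fold lower and 0.623 as a ratio of mean FPKM. The call was kept in 4 of 12 alternatives, with adjusted p from 0.0284 to 0.137. It was lost without HFD mouse 1 (adjusted p = 0.0580), 2 (0.110), or 3 (0.137), without ND mouse 6 (0.0555), 7 (0.131), or 9 (0.0641), with all 9 mice in 1 fit (0.0559), and with no minimum level (0.0819). PRF 50 vs. HFD gave 0.47 (SE 0.14, adjusted p = 0.112) with all 3 PRF 50 livers higher, and PRF 50 vs. ND gave -0.13 (SE 0.14, adjusted p = 0.737), which was -0.27 without PRF 50 mouse 3 and -0.020 without PRF 50 mouse 10.

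The balance of the enzymes within a liver was followed by differences of their log2 values. Cyp8b1 minus Cyp7b1 was 0.52, 0.67, and 0.69 in ND mice 6, 7, and 9. In HFD mice 1, 2, and 3 it was 1.95, 1.65, and 1.77, and in PRF 50 mice 3, 9, and 10 it was -2.26, 1.30, and -0.93. The HFD livers were the 3 highest, and the PRF 50 livers lay on both sides of the ND livers. The means were 0.62 ± 0.09 in the ND, 1.79 ± 0.15 in the HFD, and -0.63 ± 1.79 in the PRF 50 group (SD, n = 3). HFD exceeded ND by 1.16 (two-sided exact permutation p = 0.1, 0.3 after Benjamini-Hochberg adjustment over 6 such tests), and 0.1 is the smallest p that 3 against 3 mice can give. PRF 50 lay below HFD, with a difference of -2.42 (exact p = 0.1, adjusted 0.3), which was -1.61 without PRF 50 mouse 3. PRF 50 vs. ND gave -1.25 (exact p = 0.4, adjusted 0.48), -0.44 without PRF 50 mouse 3 and -2.22 without mouse 9. Cyp7b1 contributes the larger part of the HFD vs. ND difference, since its log2 fold change was -1.19 and that of Cyp8b1 was -0.02.

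Cyp7a1 minus Cyp27a1, which sets the first enzymes of both routes against each other, was -3.40, -2.68, and -1.85 in ND mice 6, 7, and 9. HFD mice 1, 2, and 3 had -2.17, -3.09, and -2.31, and PRF 50 mice 3, 9, and 10 had -2.71, -1.06, and -1.43. Cyp27a1 was above Cyp7a1 in all 9 livers, and the 3 groups overlapped. The differences between groups were 0.12 (HFD vs. ND, exact p = 0.9), 0.79 (PRF 50 vs. HFD, exact p = 0.3), and 0.91 (PRF 50 vs. ND, exact p = 0.3), with adjusted values of 0.9, 0.45, and 0.45. Single mice moved all of these. HFD vs. ND ran from -0.26 (without ND mouse 6) to 0.51 (without ND mouse 9). PRF 50 vs. HFD was 1.28 without PRF 50 mouse 3, 0.45 without PRF 50 mouse 9, and 0.50 without HFD mouse 2. PRF 50 vs. ND was 1.39 without PRF 50 mouse 3, 0.57 without PRF 50 mouse 9, and 0.53 without ND mouse 6.

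**Figure D3:**
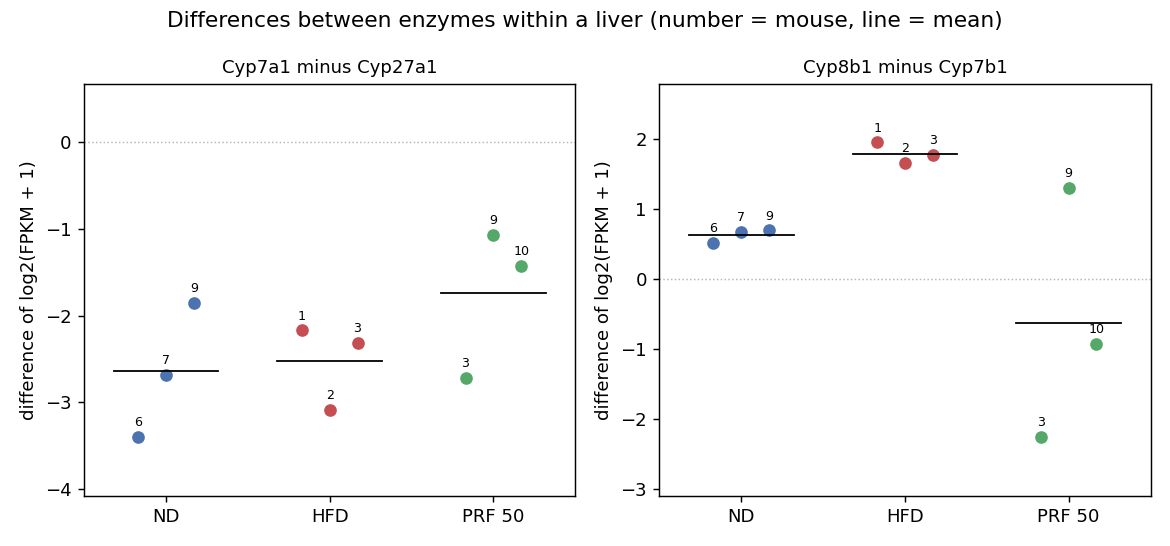
Differences of log2(FPKM + 1) between enzymes of the same liver, Cyp7a1 minus Cyp27a1 and Cyp8b1 minus Cyp7b1, by group, with the mouse number above each point, a line at the group mean, and a dotted line at 0. HFD mice have Cyp8b1 minus Cyp7b1 at 1.65 to 1.95 and ND mice at 0.52 to 0.69, while the PRF 50 mice run from -2.26 to 1.30.

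The genes whose log2 values most resembled those of a member over the 9 livers were taken by Pearson's r among 10047 other genes, as a description with no test. For Cyp7b1 they were Nme4 (r = 0.961), Selenbp2 (0.953), and Gstp1 (0.943), with r between 0.911 and 0.921 after leaving out the 2 livers farthest from the median of Cyp7b1. Selenbp2 had values of 7.01, 7.09, and 6.63 in ND, 4.72, 4.55, and 4.43 in HFD, and 7.29, 7.01, and 8.89 in PRF 50 mice, and as with Cyp7b1 the HFD livers were the 3 lowest. Selenbp2 and Gstp1 have close paralogs, so their single values are uncertain. For Cyp7a1 the genes were Zfp324 (r = 0.919), Gpatch8 (0.914), and Akap13 (0.902), and r was 0.825, 0.724, and 0.951 without the 2 farthest livers. For Nr0b2 they were Psmd3 (r = 0.964), Btg1 (0.947), and Rara (0.936), and r was 0.943, 0.848, and 0.804 without the 2 farthest livers. Cyp8b1 was nearest to Tbrg4 (r = 0.957), Cystm1 (0.937), and Apopt1 (0.923). For these genes r was only 0.05, 0.18, and 0.09 without the 2 farthest livers, so the likeness to Cyp8b1 rests on PRF 50 mice 3 and 10. All livers share their group with others, and how much of each r comes from the groups was not tested.

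A list of 19 genes, called the other enzymes here, was tested for HFD vs. ND in 17 cases (Ch25h and Star were below the minimum). Besides enzymes of bile acid synthesis, it held the transporter Abcd3, the sterol carriers Star and Stard5, and the acyltransferases Acnat1 and Acnat2. Its counts and medians cover all of these. Acnat2, a peroxisomal acyltransferase gene, was the 1 gene that rose (0.702% of all tested genes did), by 1.96 (SE 0.21, adjusted p = 0.00731), and no gene fell. Reads of Acnat2 could be shared with its close paralog Acnat1. The median of the list was 0.13, against -0.01 over all tested genes. In the PRF 50 vs. HFD comparison, 4 of 17 passed (3.59% of all tested genes), 1 higher and 3 lower, with a list median of -0.29 against -0.02. Cyp2c70, the enzyme that makes muricholic acids in mice, rose by 0.75 (SE 0.12, adjusted p = 0.0294), and its values were 7.34, 7.25, and 7.16 in HFD mice 1, 2, and 3 and 7.95, 7.84, and 8.22 in PRF 50 mice 3, 9, and 10. ND mice 6, 7, and 9 had 7.95, 7.75, and 8.25 for Cyp2c70, and HFD vs. ND gave -0.73 (SE 0.15, adjusted p = 0.0723). The HFD livers were thus lowest for Cyp2c70, as for Cyp7b1. The peroxisomal genes Abcd3 and Hsd17b4 fell by 0.71 (adjusted p = 0.0285) and 0.60 (adjusted p = 0.0365), and the remaining call was the brain-type sterol hydroxylase Cyp46a1 (-1.01, adjusted p = 0.0229). Cyp46a1 passed the minimum of 1 FPKM only through the HFD livers, with a mean of 1.90 FPKM there and 0.438 in PRF 50 livers. It was also called with no minimum level, and 3 calls remained at a minimum of 10 FPKM, which left it untested. The largest difference was that of Acnat2 (-1.05), which did not pass. The count of 4 became 0 without HFD mouse 2 or 3 or PRF 50 mouse 3 or 10, 1 with no minimum level, and 2 after quantile normalization. Of 16 tested for PRF 50 vs. ND, 0 passed in limma, 2 had an unadjusted p under 0.05 (as did 12.5% of all tested genes), the largest difference was again that of Acnat2 (0.91, adjusted p = 0.395), and the list median was -0.09.

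Other regulators of the pathway, a list of 20 genes with 17 tested, held no call for HFD vs. ND in limma, and 7 had an unadjusted p under 0.05, against 15.1% of all tested genes. Onecut1, a liver transcription factor that activates Cyp7a1, showed the largest difference, -1.59 (SE 0.30, adjusted p = 0.0521), and was called without ND mouse 9, which made the count 1. The xenobiotic receptors Nr1i3 and Nr1i2 fell for PRF 50 vs. HFD by 0.93 (SE 0.17, adjusted p = 0.0336) and 0.67 (SE 0.12, adjusted p = 0.0369), 2 of 17 against 3.59% of all tested genes. That count was 0 without HFD mouse 1 or 3 or PRF 50 mouse 3 or 10, and 1 (Nr1i3) without HFD mouse 2. Without PRF 50 mouse 9 it was again 2, but with Ppara in place of Nr1i2. Against ND, 0 of 17 passed for PRF 50 in limma, and also 0 at an unadjusted p under 0.05 (12.5% of all tested genes), with the largest difference for Onecut1 (-1.23, adjusted p = 0.471). The list medians were 0.13, -0.05, and 0.07 in this order of comparisons. Fgf15, the ileal ligand of Fgfr4, and Gpbar1 were listed at 0 in all 9 livers, and Vdr was below the minimum. Albumin (Alb) was also listed at 0 in all 9 livers, so a listed 0 does not show that a gene was silent.

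A list of 14 transporters held those of bile acids and also the lipid transporters Abcb4, Abcg5, Abcg8, and Atp8b1. It gave 0 of 11 for HFD vs. ND in limma, and 4 had an unadjusted p under 0.05, against 15.1% of all tested genes. The largest difference was that of Slco1a4 (-0.54). For PRF 50 vs. HFD, Abcc3, a basolateral export pump, was the 1 of 12 that passed (3.59% of all tested genes) and fell by 1.0 (SE 0.15, adjusted p = 0.0249). It was called without HFD mouse 2, and the count was 0 without any 1 of the 5 other mice. For PRF 50 vs. ND, Abcc3 fell by 1.09 (SE 0.11, adjusted p = 0.0128) and the uptake carrier Slco1a4 by 1.38 (SE 0.17, adjusted p = 0.0245), 2 of 11 against 0.458% of all tested genes. The count was 0 without ND mouse 7 or PRF 50 mouse 3 and 1 without ND mouse 6 or PRF 50 mouse 9. Abcc3 was 4.62, 4.47, and 4.59 in PRF 50 mice 3, 9, and 10, against 5.23 to 5.82 in the other 6 livers. The list medians were -0.01, -0.06, and 0.06 in the order of the comparisons above, and Slc51a was listed at 0 in all 9 livers.

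**Figure D4:**
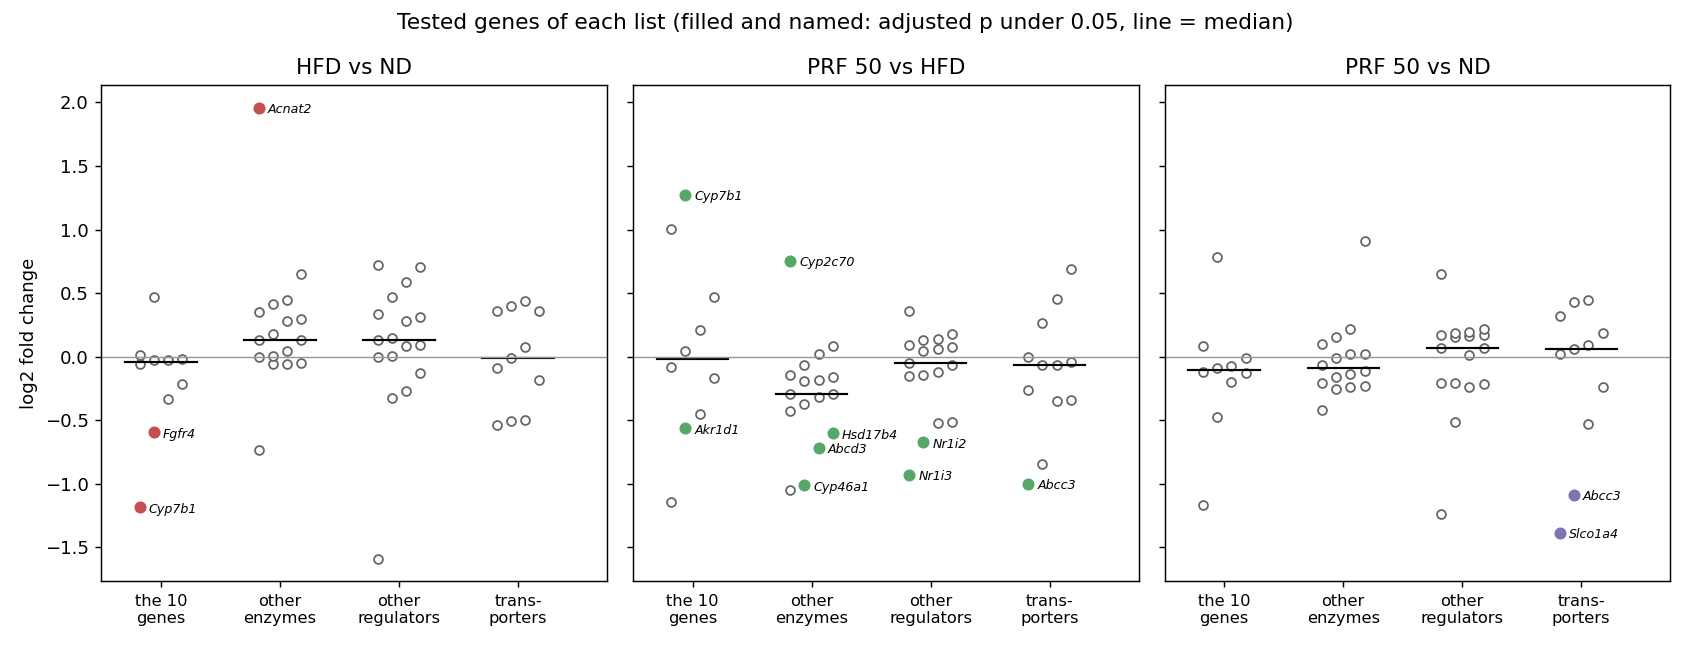
Log2 fold changes of the tested genes among the 10 genes, the other enzymes, the other regulators, and the transporters, in 1 panel per comparison, with a line at each median and filled, named points for an adjusted p under 0.05. HFD vs. ND has 3 filled points, with Acnat2 highest at 1.96, PRF 50 vs. HFD has 9, and PRF 50 vs. ND has Abcc3 and Slco1a4 only.

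Markers of other cell types and states were read beside these results. Kupffer cell markers summed to 60.3, 111, and 148 FPKM in ND mice 6, 7, and 9, to 71.2, 122, and 123 in HFD mice 1, 2, and 3, and to 419, 252, and 275 in PRF 50 mice 3, 9, and 10, with Cd5l most abundant and none of the 8 at 0. Of these, 7 of 8 rose for PRF 50 vs. HFD, against 1.43% of all tested genes. For PRF 50 vs. ND, 0 of 8 passed in limma and 8 had an unadjusted p under 0.05, against 12.5% of all tested genes. For HFD vs. ND, 0 of 8 passed and 0 had an unadjusted p under 0.05, against 15.1% of all tested genes. In these bulk samples, a change in the number of cells of a type cannot be told apart from a change in RNA per cell. Of the 7 hepatocyte markers in the tables, Apoa1 was the most abundant and Alb was listed at 0. Their sums were 21623, 14923, and 14261 FPKM in ND, 19922, 15761, and 14004 in HFD, and 17368, 16544, and 16798 in PRF 50 mice, and the groups overlapped. No hepatocyte marker passed in any comparison in limma, with 3, 1, and 0 of 6 at an unadjusted p under 0.05 for HFD vs. ND, PRF 50 vs. HFD, and PRF 50 vs. ND. The shares of all tested genes at that p were 15.1%, 20.2%, and 12.5% in the same order, here and for the markers below. Cholangiocyte, sinusoidal endothelial, and stellate cell markers also gave 0 calls in limma in each comparison, where only 1, 1, and 2 of 6 cholangiocyte markers, all 5 endothelial markers, and 5, 5, and 4 of 5 stellate markers were tested, with 0, 0, and 1, then 1, 0, and 0, then 2, 2, and 0 at an unadjusted p under 0.05. Their sums were 26.0 to 28.5, 25.6 to 36.9, and 31.8 to 41.5 FPKM for cholangiocytes (ND, HFD, PRF 50, most abundant Spp1), 38.2 to 65.3, 14.9 to 50.8, and 39.0 to 59.8 for endothelium (Clec4g), and 6.82 to 12.8, 12.9 to 19.4, and 11.8 to 19.6 for stellate cells (Col3a1), with none at 0. Of 7 ileal enterocyte markers, 5 (Fgf15, Fabp6, Cdx1, Cdx2, and Lct) were listed at 0 in all 9 livers, and the sum, mostly Slc10a2, was 2.7 to 4.62 in ND, 6.87 to 8.66 in HFD, and 3.58 to 10.3 in PRF 50 mice. Slc10a2, the only one of these tested, did not pass in any comparison, with 1 unadjusted p under 0.05 for HFD vs. ND.

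Acute-phase genes summed to 37059, 21349, and 8260 FPKM in PRF 50 mice 3, 9, and 10, against 7102 to 10378 in the 6 other livers, with Hpx most abundant. PRF 50 mouse 3 thus had the highest acute-phase and Kupffer sums together with the lowest Cyp8b1 and Nr1h4 of the 9 livers, and mouse 9 had a high acute-phase sum with the highest Cyp8b1 and Cyp7a1. Of the 10 acute-phase genes, Lcn2 rose for HFD vs. ND (2.29, adjusted p = 0.0309), as did 0.702% of all tested genes. In limma, 0 of 10 passed for PRF 50 vs. HFD or PRF 50 vs. ND. At an unadjusted p under 0.05 the counts there were 2 and 5, against 20.2% and 12.5% of all tested genes. The PRF 50 means of all 10 exceeded those of HFD mice (median 1.02) and ND mice (median 1.38). Only 1 and 2 of them had groups that lay apart, against 26.2% and 19.9% of all tested genes. The mean log2 value of the list was 7.15 in PRF 50 mouse 10, below the 7.60 to 8.09 of the HFD mice, so the higher means came mainly from PRF 50 mice 3 and 9. Clock genes, a list of 15 with 13 tested, gave 0 calls in limma in each comparison, with 4, 2, and 1 at an unadjusted p under 0.05. The shares of all tested genes at that p were 15.1%, 20.2%, and 12.5%. The smallest p-values were those of Cry1 (0.52, adjusted p = 0.113) and Nr1d1 (-0.76, adjusted p = 0.139) for HFD vs. ND, Hlf (-0.52, adjusted p = 0.0883) for PRF 50 vs. HFD, and Nr1d1 (-0.43, adjusted p = 0.392) for PRF 50 vs. ND. Among male-biased liver genes, a list of 8, Selenbp2 and Hsd3b5 fell for HFD vs. ND by 2.34 (adjusted p = 0.000854) and 2.68 (adjusted p = 0.0315). These 2 of 7 tested genes compare with 0.631% of all tested genes. Selenbp2 and Hsd3b5 rose for PRF 50 vs. HFD by 3.17 (adjusted p = 0.0212) and 2.81 (adjusted p = 0.0336), where 1.43% of all tested genes rose. Moxd1 passed the minimum only through the PRF 50 livers (20.8 FPKM, against 0.113 in ND and 0 in HFD mice), so the size of its log2 fold change is set by the pseudocount and nothing is built on its calls in both PRF 50 comparisons. Of this list, 6 of 7 tested genes were lower for HFD vs. ND (median -1.18, against -0.01 over all tested genes). Without Moxd1, 4 of 7 were higher and 3 lower in PRF 50 mice against either group. The 3 genes lower than in ND had groups that lay apart, and so did Mup20, which was higher than in ND (1.49, adjusted p = 0.107). None of these passed the threshold, and groups lay apart for 19.9% of all tested genes. Mup20 was also apart from and higher than in HFD mice (1.41, adjusted p = 0.0524). The part of these cell markers, acute-phase genes, and male-biased genes in the values of Cyp7b1, Cyp8b1, Akr1d1, or Fgfr4 was not tested.

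**Figure D5:**
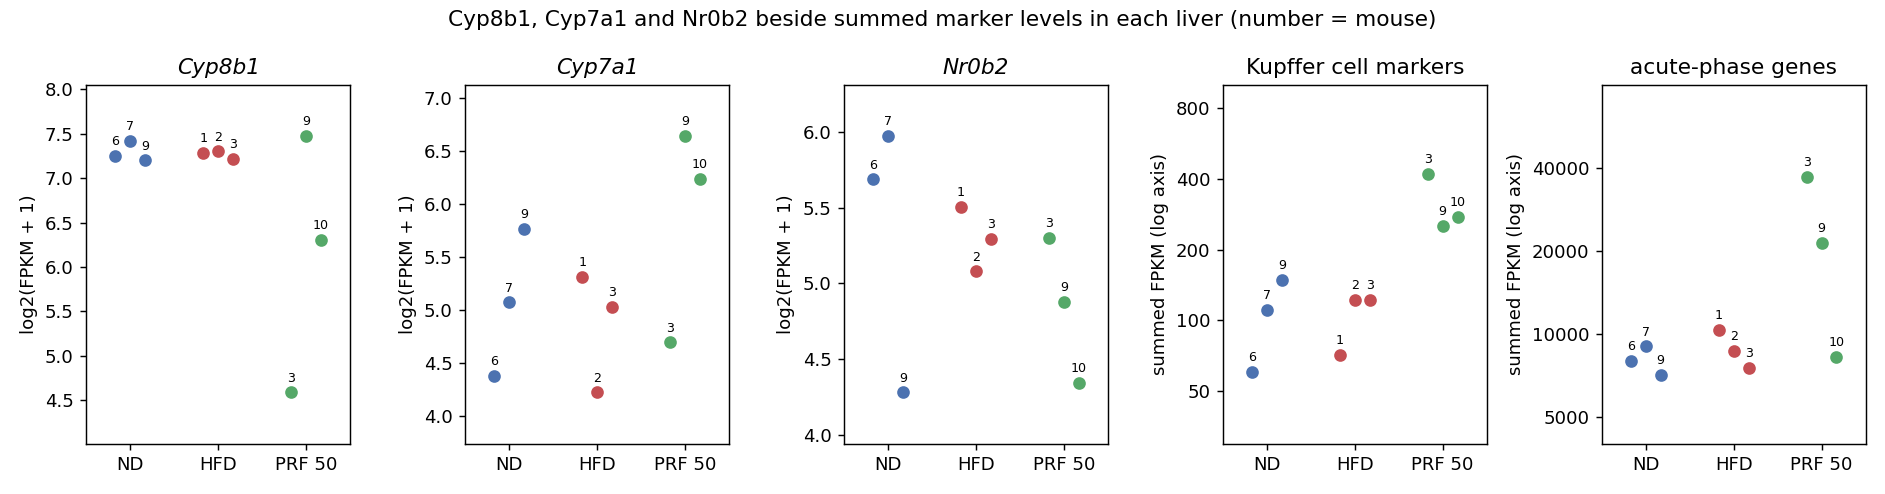
Log2(FPKM + 1) of Cyp8b1, Cyp7a1, and Nr0b2 and, on log axes, the summed FPKM of 8 Kupffer cell markers and 10 acute-phase genes in each liver, by group, with the mouse number above each point. PRF 50 mouse 3 is lowest for Cyp8b1 (4.59) and highest for both sums (419 and 37059), while PRF 50 mouse 9 is highest for Cyp8b1 (7.47) and second in the acute-phase sum (21349).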

How the data were processed

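Liver RNA-Seq values of 9 mice were used, with groups taken from the sample labels. The authors used FASTX_Trimmer and BBMap for trimming and TopHat for mapping; Cufflinks gave FPKM, and geometric normalization followed. The submitters' processing notes name mm10. Tool versions and the annotation are not given in the sources used here. The authors deposited 1 log2 value per gene symbol and mouse, taken as log2(FPKM + 1), where the 1 was inferred as pseudocount from a lowest value of 0. Depth is known only relative to HFD mouse 1, from ratios of low values.

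The package limma (version 3.58.1, run in R version 4.3.3) fitted each pair of groups by lmFit and then eBayes, set to allow a trend. Benjamini-Hochberg adjustment covered every gene that averaged 1 FPKM or more across the 6 mice. The step was tested on simulated data for PRF 50 vs. HFD only, in 5 runs with 200 changed genes each. The median share found was 78% at a log2 change of 1 and 97% at 2, with a median of 8 false calls. These shares cover all changed genes together. The share found among genes with an SD as large as that of Cyp7a1 or Cyp8b1 in the PRF 50 group was not tested. Differences within a liver were compared by two-sided exact permutation tests in Python (version 3.11.15) with SciPy (version 1.17.1). Promoters were RefSeq sequences on GRCm38.p6, and gene positions were from GENCODE M21, matched by symbol.

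The 10 genes and all lists were chosen with earlier results of these data known. The text names the 10 genes; of each list of enzymes, regulators, and transporters the genes under an adjusted p of 0.05 (at most 8) and the gene with the largest difference; of the clock, male-biased, and acute-phase lists counts and up to 4 genes; and the 3 genes most like Cyp7a1, Cyp7b1, Cyp8b1, and Nr0b2. Slco1a1, Hnf4a, and Fgf15 each stand in a pair of lists. The alternatives were a fit of all 9 mice together, the omission of each mouse in turn, quantile normalization, scaling by the median of ratios, eBayes with no trend, a pseudocount of 0.1, a minimum of 10 FPKM or none, and, for the 10 genes, a call at unadjusted p under 0.05 when the change was also more than 2-fold.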

Additional observations from a re-analysis of the deposited data

How the results depend on the processing

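For single log2 fold changes of the 10 genes, 196 of 207 alternative values and 143 of 180 values without 1 mouse kept their direction and their side of the threshold. Most of these were uncalled in the main fit and count as kept by staying uncalled. The sign turned in 6 and 20 values, and a call was lost in 5 and 17. All lost calls were those of Fgfr4 in HFD vs. ND and of Cyp7b1 and Akr1d1 in PRF 50 vs. HFD. No paired analysis was made, because the labels number the mice as separate animals and give no pairs. Where a value below changed, the cause was not tested. Calls over all tested genes also moved: 133 for HFD vs. ND (37 with no minimum, 35 to 140 without 1 mouse), 362 for PRF 50 vs. HFD (126, 15 to 242), and 46 for PRF 50 vs. ND (11, 4 to 71, and 107 with all 9 mice in 1 fit). Of the 10 genes, 1 was called for HFD vs. ND with all 9 mice in 1 fit, no minimum level, a minimum of 10 FPKM (where Fgfr4 was not tested), or unadjusted p with fold change, and 1 whichever mouse was left out. For PRF 50 vs. HFD it was 0 with no minimum, 1 with quantile normalization or unadjusted p with fold change, and 0 to 1 without 1 mouse. Calls of other enzymes there were 1 with no minimum, 2 with quantile normalization, and 0 to 4 without 1 mouse, calls of regulators 0, 1, and 0 to 2, and calls of transporters 0 with no minimum and 0 to 1 without 1 mouse. Regulators called for HFD vs. ND were 1 with a pseudocount of 0.1 (Onecut1), 1 with a minimum of 10 FPKM (Ppara), and 0 to 1 without 1 mouse (Onecut1). Ppara was higher in HFD than in ND mice in the main fit (0.59, adjusted p = 0.0521). Transporters called for PRF 50 vs. ND were 1 with all 9 mice in 1 fit or no minimum and 0 to 2 without 1 mouse. Quantile normalization reversed Baat for HFD vs. ND (-0.0034), PRF 50 vs. HFD (0.049), and PRF 50 vs. ND (0.041), and for PRF 50 vs. ND also Cyp27a1 (0.0055), Hsd3b7 (0.089), and Akr1d1 (0.054). Without 1 mouse, HFD vs. ND changed sign for Cyp7a1 (-0.56 to 0.13), Cyp8b1 (-0.066 to 0.042), Hsd3b7 (-0.13 to 0.079), Baat (-0.094 to 0.067), Nr0b2 (-0.54 to 0.31), Nr1h4 (-0.097 to 0.030), and Cyp7a1 minus Cyp27a1 (-0.26 to 0.51). So did PRF 50 vs. HFD for Hsd3b7 (-0.035 to 0.10) and Baat (-0.14 to 0.021), and PRF 50 vs. ND for Cyp7b1 (-0.15 to 0.37) and Hsd3b7 (-0.090 to 0.12). Relative depth ran from 0.969 to 1.60, counts were not used here, and values near the minimum of 1 FPKM are the least certain.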
